A study of Mus musculus with 82 samples.

Results

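The comparison described here is that of liver from C57BL/6J (B6) mice with liver from DBA/2J (D2) mice, both labelled M, the parents of the BXD recombinant inbred strains, hybridised directly against each other on 2-colour arrays. It comprised 3 of the 82 arrays of the series. They were chosen by their labels, which set liver of B6M against liver of D2M and do not call the RNA enriched. Replicate 1 was hybridised in both orientations, forward and dye-swapped, and replicate 2 in the swapped orientation only, so the 3 arrays held 2 replicates. The study description gives unfasted males, 3 mice for each strain, killed at an age of 10 to 20 weeks, and it names no treatment. The labels give no genotype other than the strain, and the sources used here do not say whether each RNA came from 1 mouse or from a pool. The labels do not say whether the replicates came from separate animals, so p-values measure only the spread between RNA samples, which may be technical. The fits below took that spread partly from other arrays of the series, as stated with each fit. On most other arrays BXD or parental liver was compared with a pool of B6 embryo RNA (day 17.5), and 3 further arrays set liver labelled B6F against liver labelled D2F.

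B6 and D2 are inbred strains, so a BXD strain carries, at each place in its genome, either the B6 or the D2 allele. The liver secretes most plasma proteins, among them the acute phase proteins, whose genes are switched on in hepatocytes by cytokines such as interleukin 6 and interleukin 1 through STAT3, C/EBP and NF-kB. It also carries the enzymes that oxidise and conjugate drugs, steroids and aldehydes, many of which are known to vary between inbred mouse strains and between the sexes.

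Each array gave 1 log ratio for each of 21936 probes, which were reduced to 21915 features, 3439 of them with a gene name. All values below are log2 ratios of B6 over D2, so a positive value means more RNA in B6 liver. This direction is likely rather than stated, because both channels of every array carry the same dye label. It was set by the reading under which hepatocyte genes stood above embryonic genes on 74 of 74 arrays against the embryo mix, and the opposite reading would turn the sign of every value below. The log base is not stated either, and the values were read as log10 and converted. The ratios had an SD over features of 0.282 on the forward array of replicate 1, 0.302 on its swapped array and 0.442 on the array of replicate 2, and the array medians lay within 0.01 of 0. In bulk liver, fewer cells of a type and less RNA per cell cannot be told apart.

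The arrays labelled F went against their labels for most of the sex-biased genes measured and for the Y-linked Uty and Eif2s3y. A wrong label and a strain difference in these genes were not told apart. On all 3 arrays labelled F, 6 of 7 measured genes with male-biased liver expression read higher in B6F than in D2F, and 8 of 11 female-biased genes read lower. Of the 3 measured Y-linked genes, Uty and Eif2s3y stood at 0.97 and 0.64 on the F arrays and Zfy1 at -0.11, and the X-linked Ddx3x and Eif2s3x stood at -0.44 and -0.29. On the M arrays these lists were mixed, with 2 of 7 male-biased genes higher and 1 lower on all 3, and 3 of 11 female-biased genes higher and 3 lower. The X- and Y-linked genes ran from -0.28 to 0.13 on the M arrays: Ddx3x at -0.28, Eif2s3y at 0.13, Uty at 0.12, Zfy1 at -0.10 and Eif2s3x at 0.09. The F arrays are therefore called the arrays labelled F below, and the calls are given with and without them.

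Orientation showed more than the strain difference over most features. Across all features the forward and the swapped array of replicate 1, turned to the same direction, correlated at only -0.0188, whereas the swapped arrays of both replicates correlated at 0.627. A dye component estimated from 32 other pairs of forward and swapped arrays correlated at 0.764 with that of the M pair. After it was subtracted, the forward and the swapped array of replicate 1 correlated at 0.314. These are correlations across features, which share their arrays and are not independent replicates. A dye effect takes opposite signs on forward and swapped arrays once these are turned, so the sign and size of a gene on all 3 arrays were read together.

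**Figure D1:**
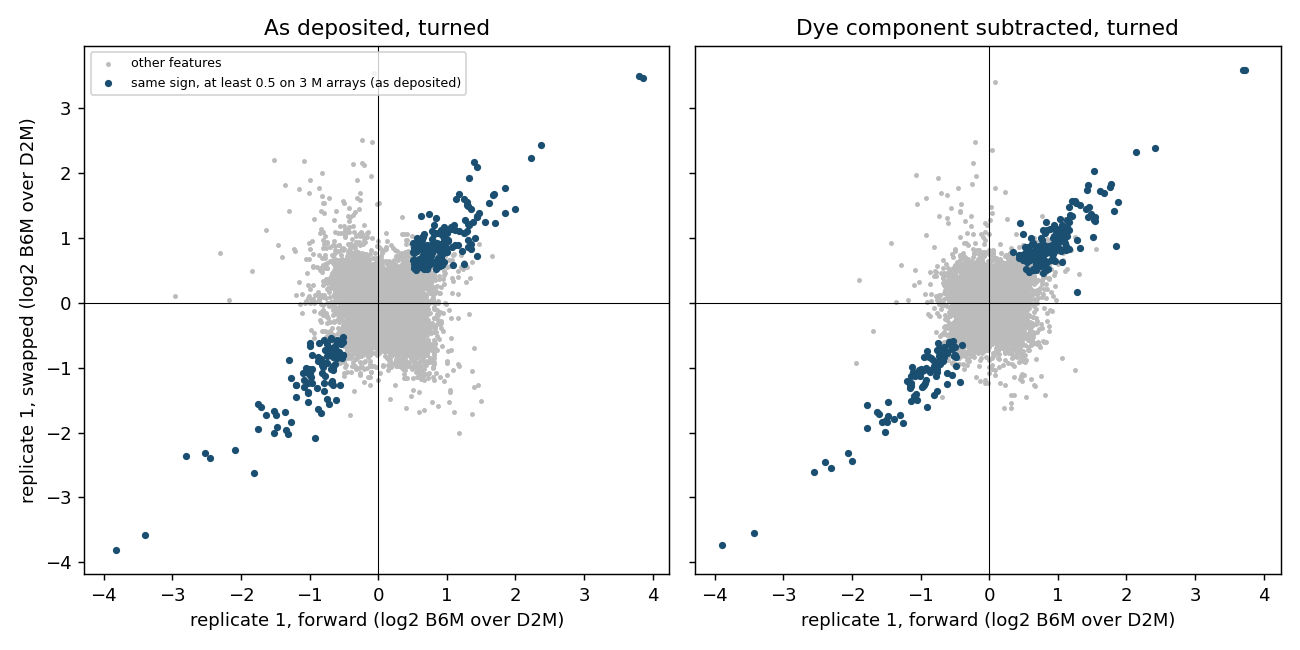
Each point is 1 feature, with its log2 ratio of B6M over D2M on the forward array of replicate 1 (horizontal axis) and on the swapped array of the same RNA (vertical axis), as deposited (left) and after the dye component was subtracted (right). The 260 features with the same sign and at least 0.5 on all 3 M arrays are dark and lie along the diagonal in both panels, while the grey cloud of other features has no diagonal trend on the left (correlation over all features -0.0188) and a weak one on the right (0.314).

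By this reading, 260 features (1.19% of those measured) had the same sign and at least 0.5 on all 3 arrays, 163 (0.744%) higher in B6M and 97 (0.443%) lower. Of these, 66 are counted as named genes, 40 higher and 26 lower. Read on the array of replicate 2 alone, 4419 features reached 0.5, and on the arrays of replicate 1 alone 341. If the deposited values were log2 rather than log10, 12 features would reach it on all 3 arrays. Just inside the limit of 0.5 were Zc3h8, whose smallest ratio was 0.51, and Ambp and Litaf at -0.51. Just outside it were Mpc1 at 0.50, Mpg at -0.50 and Slc15a2 at 0.49.

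The planned test was limma on 4 values, the M and F replicates, with Benjamini-Hochberg adjustment over all features. It called 6 features (0.0274%) at an adjusted p under 0.05, 3 higher and 3 lower in B6M (0.0137% each), and 1343 had an unadjusted p under 0.05. The named ones were Apcs, Saa3 and Lpin1, and the other 3 had no gene name. Fitted on the M arrays alone, without the arrays labelled F, limma called 0 features, with 1261 at an unadjusted p under 0.05. It also called 0 without either M replicate. A second limma fit, added after the data were seen, subtracted the dye component and shared its spread with repeated BXD livers, 1 group of them labelled M and 4 labelled F, which gave 8 residual degrees of freedom in place of 2. It called 486 features (2.22%), 267 (1.22%) higher and 219 (0.999%) lower, and included all 6 of the first. Without the arrays labelled F it called 470 (2.14%), of which 438 were among the 486. Its count depended on replicate 2, since it called 92 features without it and 731 without replicate 1, of which 86 and 260 were among the 486. Most BXD values in this fit averaged a forward and a swapped array against the embryo mix. M replicate 2 was 1 swapped array, with an SD over features of 0.442. The shared spread may therefore be narrower than that of the M values, which was not tested. Below, "called" without further words refers to this added fit, and the planned fit is named where it also made the call. The p-values of the added fit belong to ratios after the dye component was subtracted, whereas the ratios and folds printed are those before it. For Fmo1, as an example, the mean was 1.20 before and 1.33 after.

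The leading genes lower in B6M liver were acute phase genes. Saa3, serum amyloid A3, an acute phase apolipoprotein, read -3.82 on the forward array of replicate 1, -3.81 on its swapped array and -3.78 on the array of replicate 2. The 3 ratios lay within 0.04 of each other, and their mean over replicates of -3.80 (SE 0.133, n = 2) is a 13.9-fold lower level, called by limma in the planned fit (adjusted p = 0.0393) and in the added one (9.50e-07). Each SE given here and below is limma's from the planned fit. Its spread also draws on the arrays labelled F, not on the 2 M values alone. Apcs, serum amyloid P component, a pentraxin of plasma that binds amyloid fibrils, read -3.40, -3.58 and -3.27 in the same order. Its mean of -3.38 (SE 0.105, n = 2), a 10.4-fold lower level, was called by limma in both fits, with adjusted p of 0.0321 and 2.84e-07. Both genes stood far below 0 on every M array.

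Serpina3n, a secreted inhibitor of serine proteases that rises in inflammation, read -1.52, -2.0 and -1.93 and was 3.60-fold lower on average (limma, adjusted p = 2.68e-04 in the added fit and 0.103 in the planned one). Orm1, which encodes alpha-1-acid glycoprotein, a drug-binding plasma protein, read -1.53, -1.66 and -1.60, or 3.03-fold lower (limma, 1.17e-04 and 0.103). Lbp, the lipopolysaccharide-binding protein that presents bacterial lipopolysaccharide to CD14, read -0.71, -1.55 and -1.98. It lay closer to 0 on the forward array than on either swapped array, and it too was called lower (limma, 0.00115 in the added fit and 0.290 in the planned one). Pzp, a plasma protease inhibitor of the alpha-2-macroglobulin family, read -1.02, -1.02 and -1.18, and Fgl1, a fibrinogen-like protein secreted by hepatocytes, read -1.29, -0.88 and -0.76. Both were called lower (limma, adjusted p = 0.0117 and 0.00115).

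**Figure D2:**
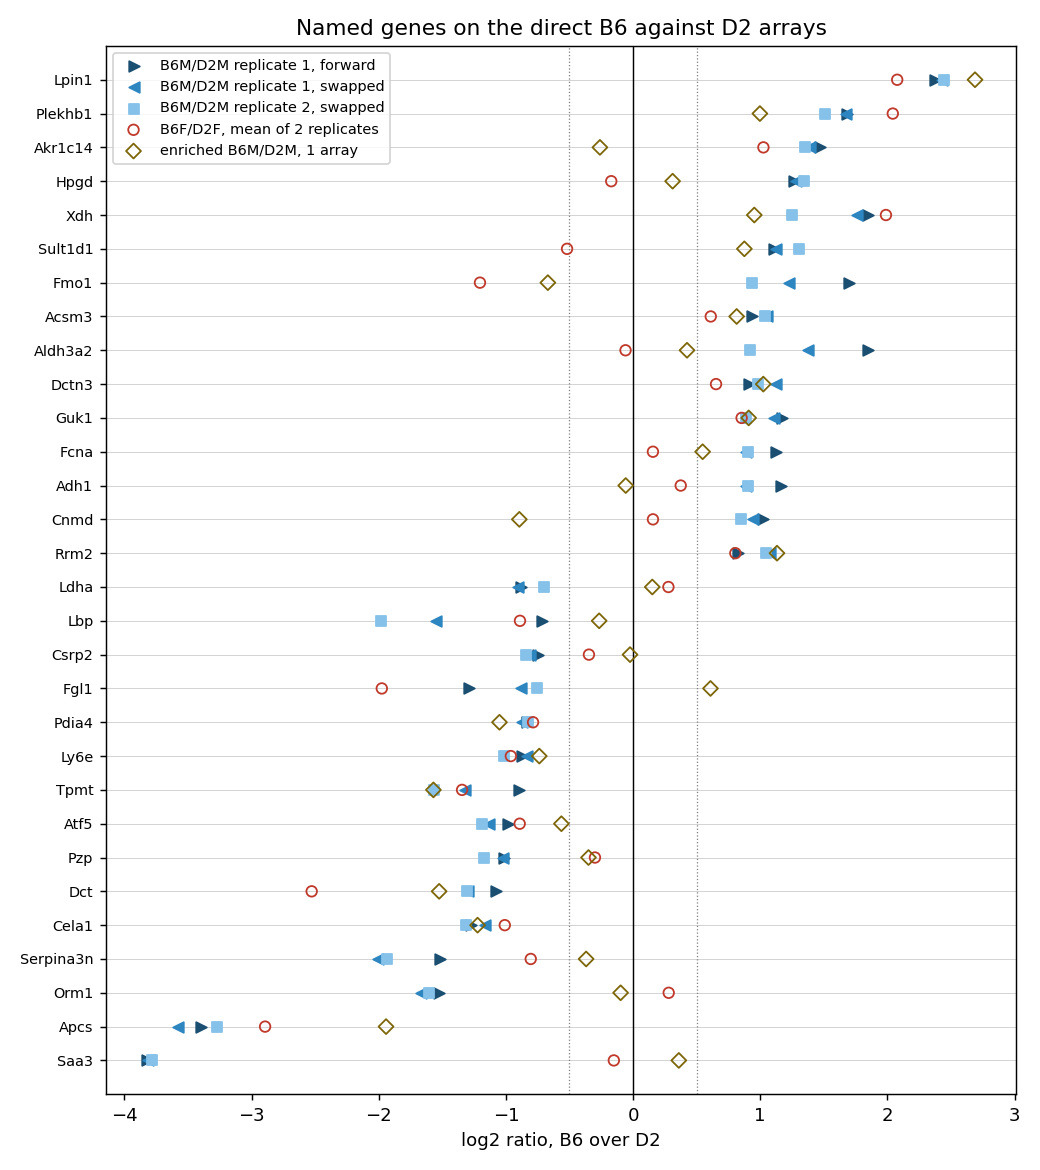
For the 15 named genes per direction with the largest smallest ratio over the 3 M arrays, the log2 ratio of B6 over D2 (horizontal axis) is shown for each M array (filled symbols), for the mean of the replicates labelled F (circles) and for the enriched M array (diamonds), with dotted lines at 0.5 on either side of 0. Filled symbols of Saa3 and Lpin1 nearly coincide, at -3.82 to -3.78 and 2.37 to 2.45, whereas those of Lbp spread from -1.98 to -0.71, and the circles of Saa3, Orm1, Hpgd, Sult1d1, Fmo1 and Aldh3a2 lie away from their filled symbols.

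Of the 15 measured genes on a list of acute phase and plasma proteins, 7 were called lower and 0 higher, beside 0.999% and 1.22% of all features. The median ratio of the list was -0.45, against 0.00 over all features (0.00144). This median was the value of Hp, which read 0.37 on the forward array of replicate 1 and -0.98 and -0.60 on the swapped arrays. Ahsg had the same ratios within 0.001 on every M array, so the values of Hp and Ahsg were not independent of each other. The called genes were Saa3, Apcs, Serpina3n, Orm1, Pzp, Fgl1 and Cp, the last encoding ceruloplasmin, a copper-carrying ferroxidase of plasma, which read -0.75, -0.45 and -0.95. The others, not called, ran from -0.45 for Hp and Ahsg to 0.10 for Mug1, and included Serpinf2 at -0.44, the clotting factors F10 at -0.30 and F5 at 0.01, Saa4 at -0.10, and Itih2 at -0.06. Lbp was not on this list. Of 10 measured complement genes, 2 were called lower and 0 higher: C4bp, an inhibitor of the classical pathway, at -0.68 (-0.14, -0.66 and -0.97 by array), and Mbl1, a mannose-binding lectin, at -0.43. The count of the acute phase list stayed at 7 lower without the arrays labelled F and without replicate 1, and was 6 without replicate 2. The complement genes called were 2, 1 and 0 in these cases. The planned fit called 2 of the 15 acute phase genes, Saa3 and Apcs, and 0 complement genes.

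The 250 bases upstream of the annotated start are shown for Saa3 and Apcs, the acute phase genes with the lowest ratios (RefSeq, GRCm38.p6), since both read far below 0 on all 3 M arrays, though only Apcs did so on the arrays labelled F and on the enriched array, and genes of this response are known for binding sites of STAT, C/EBP and NF-kB factors there. Saa3 lies on the minus strand with its window at chr7:46715677-46715926, and Apcs on the minus strand at chr1:172895055-172895304. Capitals mark matches, on either strand, to TTCNNNGAA for STAT factors, TTGCNNAA for C/EBP factors or the NF-kB consensus, and no matches overlapped.
Saa3: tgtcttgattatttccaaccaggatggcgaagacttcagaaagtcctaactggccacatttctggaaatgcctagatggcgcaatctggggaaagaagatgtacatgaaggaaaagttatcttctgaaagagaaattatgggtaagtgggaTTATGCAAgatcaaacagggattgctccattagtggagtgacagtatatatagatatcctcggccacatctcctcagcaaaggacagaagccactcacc
Apcs: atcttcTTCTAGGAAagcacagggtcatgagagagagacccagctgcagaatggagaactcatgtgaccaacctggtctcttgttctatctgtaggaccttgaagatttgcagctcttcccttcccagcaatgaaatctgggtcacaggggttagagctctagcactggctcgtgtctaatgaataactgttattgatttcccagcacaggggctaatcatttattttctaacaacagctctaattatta
Saa3 held 1 match to the C/EBP pattern, beginning at position -99 from the start, and Apcs 1 match to the STAT pattern, beginning at -244. Serpina3n and Lpin1, searched in the same way, held 0 matches to the 3 patterns in their windows. Of 32851 promoter windows of this length, 9.56% held the C/EBP pattern, 7.02% the STAT pattern and 3.9% the NF-kB consensus. A match describes letters only, and its absence says only that these letters are not in the window.

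The genes lower in B6M that were not secreted plasma proteins had mixed roles. Cela1, a pancreatic-type elastase, read -1.27, -1.16 and -1.31, a 2.40-fold lower level (limma, adjusted p = 9.92e-05). Prss2 and Reg1, the other measured markers of pancreas, stood at 0.15 and -0.11. Tpmt, the enzyme that S-methylates thiopurine drugs, read -0.90, -1.32 and -1.56 and was 2.53-fold lower (limma, 0.00124). Atf5, a transcription factor of the stress response, read -0.98, -1.14 and -1.19, and Ly6e, a GPI-anchored surface protein induced by interferon, read -0.87, -0.84 and -1.02 (limma, 0.0204 and 0.0342). Dct, the dopachrome tautomerase of melanin synthesis, read -1.08, -1.30 and -1.31, and Csrp2, a LIM-domain protein, read -0.75, -0.81 and -0.85 (limma, 0.00715 and 0.00432). Ldha, the lactate dehydrogenase subunit that prevails in glycolytic tissue, read -0.88, -0.90 and -0.70, or 1.74-fold lower (limma, 0.00481). Pdia4, a protein disulphide isomerase of the endoplasmic reticulum, read -0.84, -0.87 and -0.83 but was not called in either fit (limma, 0.0934 and 0.205). Of the 30 named genes, 15 of 15 higher and 14 of 15 lower were called, beside 2.22% of all features. The 30 were chosen by their ratios on the same 3 arrays, so this count is no separate support. Of the 30, 29 were called without the arrays labelled F, 22 without replicate 1 and 12 without replicate 2.

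Among the genes higher in B6M liver, Lpin1 led. It encodes lipin 1, a phosphatidate phosphatase of triglyceride synthesis that also acts as a transcriptional coactivator. It read 2.37, 2.43 and 2.45 on the 3 arrays. The mean of 2.42 (SE 0.0967, n = 2), a 5.37-fold higher level, was called by limma in both fits (adjusted p = 0.0443 in the planned one and 0.00774 in the added one). Plekhb1, a membrane-associated protein with a pleckstrin homology domain, read 1.68, 1.68 and 1.51, or 3.02-fold higher (limma, 0.00340). Xdh, xanthine dehydrogenase, which makes uric acid, read 1.84, 1.76 and 1.25, or 2.88-fold higher (limma, 0.00501).

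The list with the most genes called higher was that of drug, steroid and aldehyde metabolism. Of 42 measured, 9 were called higher and 2 lower, beside 1.22% and 0.999% of all features, and the median ratio of the list was 0.32. Akr1c14, a hydroxysteroid dehydrogenase, read 1.47, 1.39 and 1.35 (2.63-fold; limma, adjusted p = 4.78e-04). Sult1d1, a sulphotransferase, read 1.11, 1.12 and 1.31 (2.32-fold; limma, 0.00340). Fmo1, a flavin-containing monooxygenase that oxygenates drugs at nitrogen and sulphur, read 1.70, 1.22 and 0.94 (2.30-fold; limma, 1.17e-04). Fmo2, of the same family, read 0.68, 0.71 and 0.89 and was also called higher (limma, 0.0119). Aldh3a2, a fatty aldehyde dehydrogenase, read 1.85, 1.38 and 0.92, and Adh1, the main alcohol dehydrogenase of liver, read 1.17, 0.89 and 0.90 (limma, 0.00209 and 5.98e-04). Cyp4a14, Abcc2 and Ugt2b5 were also called higher, at 0.81, 0.75 and 0.71, and Cyp2a4 with Tpmt lower. Nr1i3, the xenobiotic receptor CAR, read 0.95, 1.03 and 0.79 but was not called (limma, 0.134). Without the arrays labelled F, 9 were called higher and 2 lower, without replicate 1 the counts were 9 and 3, and without replicate 2 they were 4 and 0. In the planned fit 0 of the 42 were called. On the arrays labelled F the list median was -0.09, with 10 called higher and 13 lower, beside 13.6% of all features called there. The difference between M and F was called for 15 of the 42, beside 1.70% of all features. On the enriched M array the list median was -0.01, and Akr1c14 and Adh1 read -0.26 and -0.06.

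The remaining higher genes that were named were enzymes of other pathways and proteins with unrelated roles. Hpgd, which inactivates prostaglandins, read 1.26, 1.28 and 1.35 and was 2.48-fold higher (limma, adjusted p = 0.00303). Acsm3, a medium-chain acyl-CoA synthetase, read 0.94, 1.05 and 1.04, and Guk1, guanylate kinase, read 1.17, 1.11 and 0.89 (limma, 0.00927 and 0.00101). Rrm2, the regulated subunit of ribonucleotide reductase, read 0.83, 1.07 and 1.05, and it was the only 1 of 13 measured cell division genes that was called. Dctn3, a dynactin subunit, Fcna, a lectin that activates complement and is made by macrophages, and Cnmd, chondromodulin, read between 0.85 and 1.12 on every M array (limma, 0.00291, 0.0289 and 0.0401).

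The other gene lists held up to 5 called members each, beside 1.22% of all features called higher and 0.999% called lower. In fatty acid and cholesterol synthesis, 3 of 8 were called higher and 0 lower: Lpin1, the squalene synthase gene Fdft1 at 0.52 and the lanosterol demethylase gene Cyp51 at 0.47. Of 17 genes of the urea cycle and amino acids, Oat (0.90) and Gnmt (0.63) were called higher and Aass (-0.86) and Arg1 (-0.37) lower. Of 34 MHC and interferon genes, Irgm2 (0.89) and Ifi203 (0.66) were called higher and Psmb9 (-0.70) lower. Hsph1 at 0.50 was called higher among 12 heat shock genes, the paraoxonase gene Pon1 at 0.65 among 9 lipoprotein genes, Ldha at -0.80 lower among 13 glucose genes, and the coactivator gene Ppargc1a at -0.61 lower among 7 genes of fatty acid oxidation. Of 12 heme and iron genes, Alad (-0.82) and Cp (-0.77) were called lower and 0 higher. Of 16 genes typical of adult hepatocytes, 3 were called higher (Gnmt, Pon1 and Ugt2b5) and 2 lower (Arg1 and C4bp), and of 18 embryonic and fetal genes the imprinted gene Peg3 (-0.99) was called lower. Of 8 bile acid, 8 retinoid, 9 clock, 12 ribosomal protein and 16 respiratory chain genes, 0 were called.

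**Figure D3:**
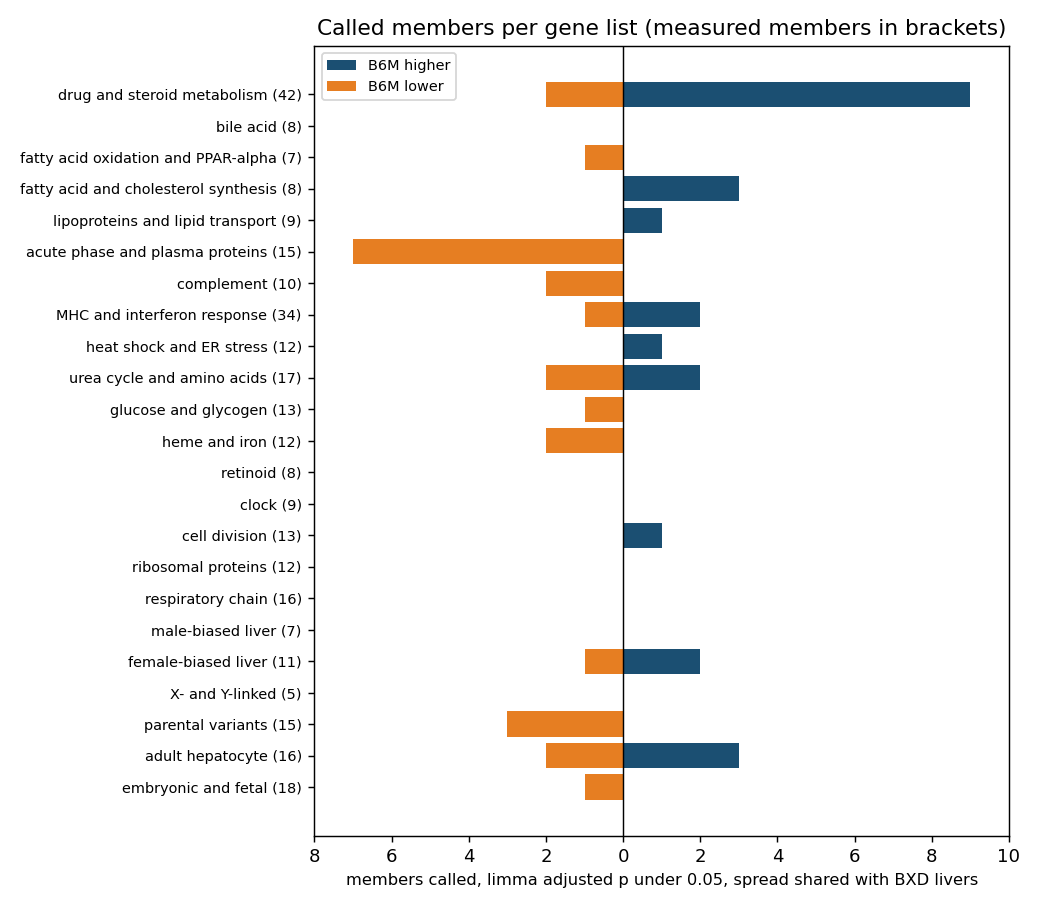
Bars give the number of members of each list that were called by limma in the added fit (adjusted p under 0.05), to the right for higher and to the left for lower in B6M, with the number measured in brackets. Drug and steroid metabolism has 9 of 42 to the right and 2 to the left, and the acute phase list has 7 of 15 to the left and 0 to the right.

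Of 15 measured genes listed because B6 and D2 are known to differ at them, 3 were called lower in B6M and 0 higher, beside 0.999% and 1.22% of all features. Mpg, a DNA glycosylase, read -0.50, -1.08 and -1.26, Alad, the second enzyme of heme synthesis, of which D2 mice carry extra copies, read -0.39, -0.97 and -0.96, and Car3, a carbonic anhydrase of fat, muscle and liver, read -0.40, -0.67 and -0.70 (limma, adjusted p = 0.00288, 0.00481 and 0.0157). Ahr, the dioxin receptor, stood at 0.31 (limma, 0.0530). The others were not called: Car2 stood at 0.72, with -0.26 on the forward and 0.60 and 1.27 on the swapped arrays, and Cox7a2l at -0.27, H2-Ea at -0.26, Gbp2b at 0.25, Abcb10 at -0.23, Apoa2 at -0.21, Ctse at -0.17, Fech at 0.09, Klrd1 at 0.04, Ifi202b at -0.03 and Myo5a at -0.02.

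Markers of other cell types were checked beside these groups. Mean ratios of 4 macrophage markers ran from 0.02 to 0.31, of 4 lymphocyte markers from -0.27 to 0.11, of 4 endothelial markers from -0.20 to 0.21, of 5 stellate and fibroblast markers from 0.01 to 0.37, and of 4 red blood cell markers from -0.23 to -0.03. Of these 21 markers 0 were called, and the bile duct marker Epcam stood at -0.01. Among other organs, Cela1 of 3 pancreas markers and Car3 of 4 kidney, fat and muscle markers were called lower. Of 5 hepatocyte markers, Gnmt was called higher and 4 were not called, from -0.35 for Mbl2 to 0.06 for Otc.

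The 260 features were then read on arrays that had not chosen them. On all 3 arrays labelled F, 182 of them (70.0%) had the sign of the M arrays and 36 (13.8%) the opposite sign, beside 24.1% and 17.3% of all features. With the size limit of 0.5 as well, 98 (37.7%) did so, against 1.22% of all features. By the added limma fit 151 (58.1%) were called on the arrays labelled F, beside 13.6% of all features. Of the 30 named genes, 10 of 15 higher and 12 of 15 lower kept the sign on all 3 arrays labelled F, and Apcs stood at -2.89, Lpin1 at 2.08, Plekhb1 at 2.04, Xdh at 1.99 and Tpmt at -1.34 there. The single array of RNA labelled enriched for B6M and D2M, which has no replicate, had the same sign for 216 (83.1%), beside 70.0% of all features, and 139 (53.5%) also had the size of 0.5, beside 10.8%. Lpin1 read 2.69 on it and Apcs -1.94, whereas Saa3 read 0.36, Orm1 -0.10, Fgl1 0.61, Fmo1 -0.67, Cnmd -0.89, Akr1c14 -0.26 and Adh1 -0.06. The labels do not say what was enriched.

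The difference between M and F was tested as a contrast in the same fits. The planned limma fit called 0 features, with 1673 at an unadjusted p under 0.05 and a smallest adjusted p of 0.249. The added limma fit called 373 (1.70%), among them 72 of the 260 features and 16 of the 66 named ones. Both sets were chosen by their large M ratios, which favours a difference from F. The added fit called 327 without M replicate 1 and 56 without M replicate 2. For Saa3 the difference was the widest of the named genes: against -3.80 on the M arrays, the arrays labelled F read 0.18, -0.08 and -0.35, so that the groups did not overlap (difference -3.65; limma, adjusted p = 5.37e-05). Orm1, at -1.60 on the M arrays, read 0.51, 0.12 and 0.25 on those labelled F (difference -1.88; limma, 9.93e-04). Apcs read -2.70, -3.04 and -2.92 there, and its difference of -0.49 was not called (limma, 0.154). Serpina3n, at -0.56, -0.78 and -0.94, and Lbp, at -0.20, -1.28 and -1.04, kept their sign, and their differences from the M arrays were not called either (limma, 0.0563 and 0.147).

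Enzymes of drug and steroid metabolism also differed between M and F. Fmo1 was higher in B6M and read -0.89, -1.44 and -1.24 on the arrays labelled F (difference 2.40; limma, adjusted p = 5.37e-05). Sult1d1, likewise higher in B6M, read -0.53, -0.35 and -0.60 there (difference 1.73; limma, 0.00688). Cyp2b9 and Cyp2b13, female-biased cytochromes P450, stood at -0.12 and 0.01 on the M arrays and at -2.69 and -2.70 on those labelled F. Cyp7b1 and Cyp2d9, male-biased cytochromes P450, stood at 0.02 and 0.43 on the M arrays and at 2.58 and 2.36 on those labelled F. On the same arrays the Y-linked Uty and Eif2s3y read above 0 and Zfy1 near 0, as given above, and the sex-biased genes' part in the difference between M and F was not tested.

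**Figure D4:**
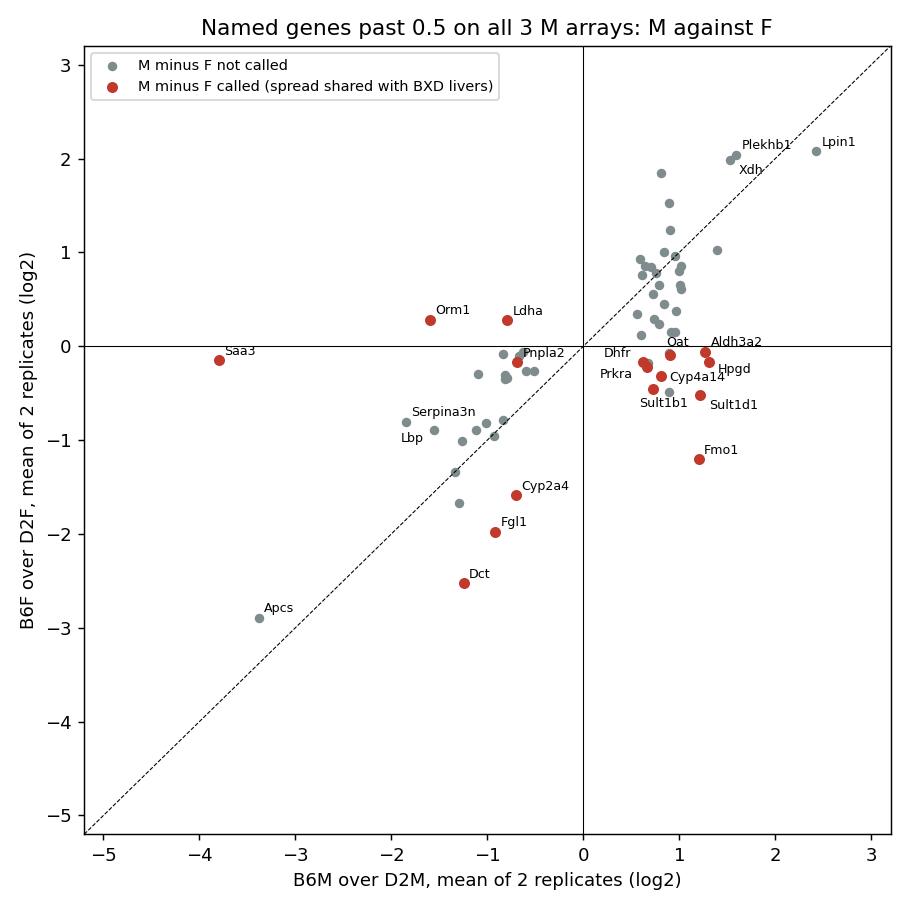
Each point is 1 of the 66 named genes with the same sign and at least 0.5 on all 3 M arrays, with its mean log2 ratio on the M arrays (horizontal axis) and on the arrays labelled F (vertical axis), and the dashed line marks equal ratios. Lpin1, Plekhb1, Xdh and Apcs lie near the dashed line, Saa3 lies at -3.80 against -0.15, Fmo1 at 1.20 against -1.20, and the 16 genes whose difference was called by limma in the added fit are red.

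Liver of BXD strains labelled M, set against the embryo mix, gave a further view of the same genes. Of the 260 features, 175 (67.3%) were among the 10.0% of all features with the largest SD over 13 BXD strains measured in both orientations. B6M liver against the same mix stood on the side of the BXD mean given by the sign of the direct ratio for 200 (76.9%), beside 52.0% of all features. It may share RNA with the direct arrays. For 7 of the 30 named genes the direct difference was wider than the whole span of the 13 strains: Lpin1, Sult1d1, Saa3, Orm1, Serpina3n, Pzp and Lbp. The margin was narrow for Pzp (1.10 against a span of 1.08), Sult1d1 (1.21 against 1.17) and Saa3 (3.80 against 3.62). Dctn3 fell just short (1.002 against 1.007). The series held 17 BXD strains labelled M, and those with forward arrays only were left out of this span. For Lpin1, B6M minus the strain mean was 0.55 over the 13 strains and 1.27 over all 17. The span over all 17 was not computed, so the statement holds for the 13 strains only.

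Saa3 ranged from 0.35 in BXD6M to 3.97 in BXD28M, with a median of 1.05, and B6M stood at 1.18, above 8 strains and below 5. Serpina3n ranged from 1.48 to 2.83 with B6M at 2.42, above 11 of 13 strains, and Lbp from 1.05 to 2.21 with B6M at 1.91, above 9. For both of these, B6M thus stood above most strains on the arrays against the embryo mix, while the direct ratio to D2M was below 0. Apcs ranged from 0.70 to 4.74, a 16.4-fold span, with B6M at 1.64, below 11 of 13. Lpin1 ranged from 1.18 to 3.30 with B6M at 2.77, above 11 of 13, and Tpmt from 1.42 to 2.93 with B6M at 1.53, below 11. Atf5 in B6M, at 0.47, was below all 13 strains, whose lowest value was 1.15, and Sult1d1 and Fmo1 in B6M, at 3.27 and 1.72, were above all 13. BXD28M had the highest value of Saa3, Apcs, Orm1, Pzp and Lbp.

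**Figure D5:**
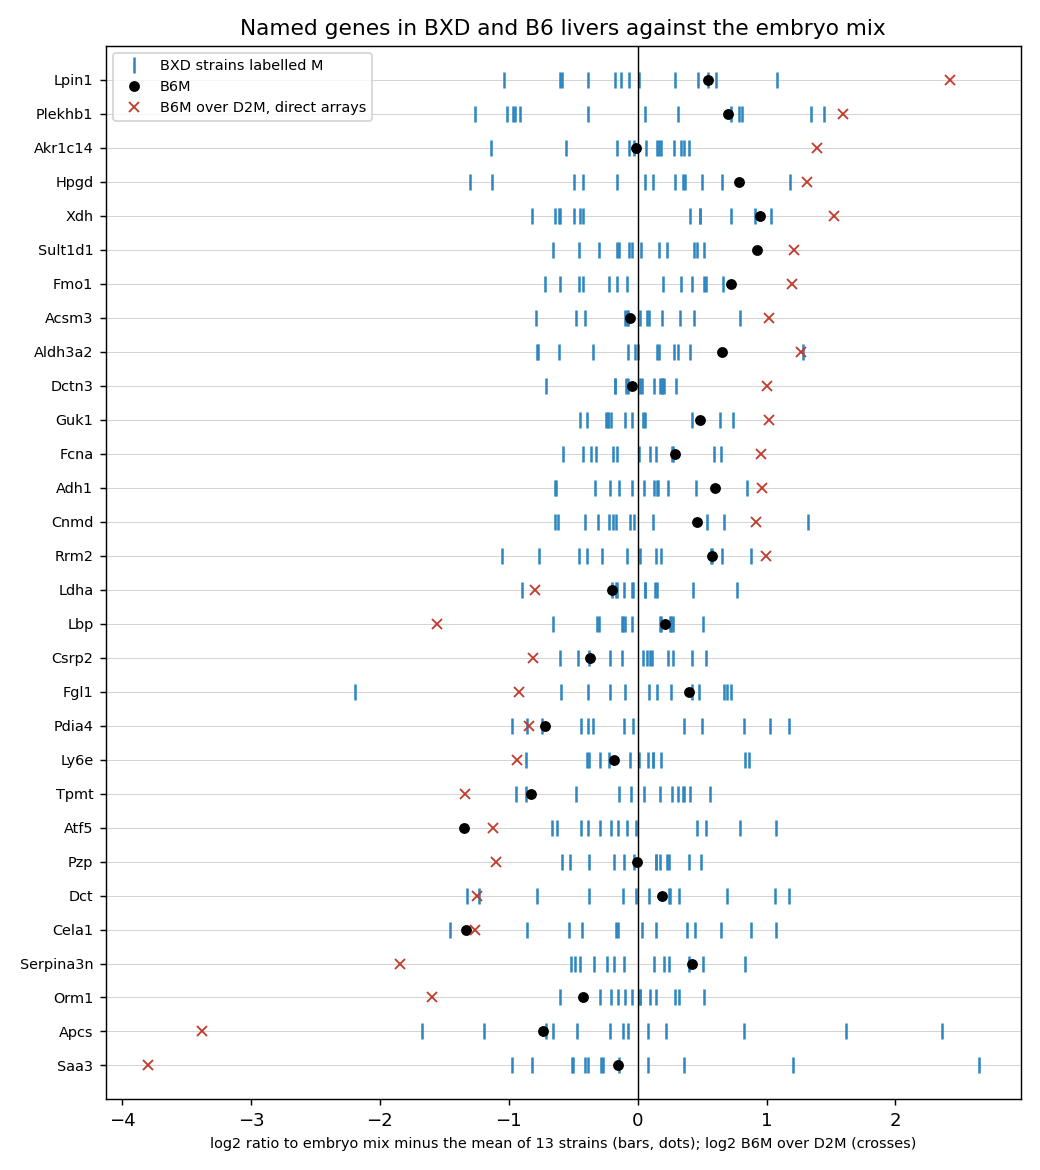
For each of the 30 named genes, bars give the 13 BXD strains labelled M and dots B6M, as log2 ratios to the embryo mix minus the mean of the strains, and crosses give the direct log2 ratio of B6M over D2M. The crosses of Saa3 (-3.80), Orm1 (-1.60), Serpina3n (-1.85) and Lbp (-1.56), among others such as Apcs (-3.38), lie below the lowest bar. The dots of Serpina3n and Lbp lie to the right of the mean. Crosses give a difference between parents and bars a distance from the strain mean, so a cross past the bars is not a value outside the strains.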

How the data were processed

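The authors deposited 1 log10 ratio per probe and array. The base was read from 94 values over all arrays at exactly 2 or -2 and is not stated. What scanner and normalization were used is not given in these sources, and signal intensity was not analysed. Forward arrays were multiplied by -1 and all values converted to log2, so they read B6 over D2. Probes of 1 symbol were averaged. Names came from the platform annotation (3290 probes with 1 symbol, 4 with several) and from RefSeq accessions (170 more), and 18476 probes were unnamed. Orientations of replicate 1 were averaged, and limma 3.58.1 (R 4.3.3) was fitted to all features. Only the planned fit was checked on simulated data, with errors drawn independently, and the added fit was not. The members, gene lists and named genes (the 15 per direction with the largest smallest ratio over the 3 M arrays) were chosen with earlier results of these data known. The fit with a shared spread used 15 values of 7 groups. 1 item is not reported here and was left out of the named genes and lists. Promoter sequences are RefSeq's (GRCm38.p6), and the table held no window for Orm1, Lbp or Fgl1. The number of arrays limits the precision.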

Additional observations from a re-analysis of the deposited data

Results flagged for a closer look

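For 9 of the 30 named genes the difference between B6 and D2 differed between the M arrays and the arrays labelled F by the limma contrast in the added fit (adjusted p under 0.05). Of all features, 373 (1.70%) were called by this contrast. The 30 were chosen by their large M ratios, which favours a difference from F, so the count is no separate support. The planned fit called none of these differences (0 features, 1673 at an unadjusted p under 0.05). The M value was below the F value for Saa3, by -3.65 on the log2 scale (limma, adjusted p = 5.37e-05), for Orm1, by -1.88 (limma, 9.93e-04), and for Ldha, by -1.08 (limma, 0.0161). It was above the F value for Fmo1 by 2.40, Sult1d1 by 1.73, Hpgd by 1.48, Aldh3a2 by 1.33, Dct by 1.28 and Fgl1 by 1.05 (limma, adjusted p between 5.37e-05 and 0.0443). Dct and Fgl1 were lower in B6M (-1.25 and -0.92), so they kept this direction on the arrays labelled F and lay further below 0 there. The arrays labelled F went against their labels for most of the sex-biased genes measured and for the Y-linked Uty and Eif2s3y, though not for the Y-linked Zfy1 (-0.11), and the part of this in the 9 differences was not tested.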

How the results depend on the processing

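The planned fit called 6 features, and its count depended on the setting: 0 on the M arrays alone, 0 with the replicate block, 0 with only the forward array of replicate 1, 2 with arrays scaled (none of the 6), 13 with trended and robust limma, 25 with the enriched M array added (1 of the 6), 39 after quantile normalization (3 of the 6) and 46 with a dye term on the 3 M arrays (all 6). The settings with a shared spread were chosen after seeing the data and gave 486, or 470 without the arrays labelled F. Leaving out either M replicate gave 0 calls in the planned fit (2641 and 581 features at an unadjusted p under 0.05), and in the added fit 731 without replicate 1 and 92 without replicate 2. M and F shared only the replicate numbers 1 and 2, and deviations of the first correlated at 0.325, so the numbers do not establish pairs. The difference between M and F gave 0 calls under every planned setting, and 373 with the shared spread, or 327 and 56 without M replicate 1 or 2. The 260 features became 629 with a limit of 0.3, 61 with a limit of 1 and 12 if the deposited values were log2 (chosen after seeing the data), and 341 to 4419 without 1 replicate. For the named genes, 300 values under other settings kept their sign, of which 16 lost and 37 gained a call by limma. All 16 losses were of Apcs, Saa3 and Lpin1, the only named genes called in the planned fit and so the only ones able to lose a call. Each of these lost its call on the M arrays alone, with the replicate block and with arrays scaled. Most of the gains came with the shared spread, which was chosen after seeing the data. The causes were not tested.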

Other observations

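The ratios of 8 features, Hp, Ahsg and 6 without a gene name, were equal within 0.001 on all 3 M arrays, at 0.37, -0.98 and -0.60. Pck1 had the same value as these on 2 of the 3 arrays and Apoa2 on 1. Their values on the M arrays were therefore not independent of each other, and the cause was not tested.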
